A study of Mus musculus with 6 samples.

Results

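The 9 enzymes described here make serine from a glycolytic intermediate and pass its 1-carbon unit through the folate cycle. They are Phgdh, Psat1 and Psph of serine synthesis, the serine hydroxymethyltransferases Shmt1 and Shmt2, and Mthfd1, Mthfd2, Mthfd1l and Aldh1l2 of the folate cycle. They were chosen by name from the 26529 genes of the deposited table, with the difference between the groups already known, so their fold changes, errors and calls, taken from the fit over all genes, are a description and no independent test. All 9 were among the 12301 genes that reached at least 1 RPKM (reads per kilobase of gene length, scaled to the reads assigned in each library) in at least 3 of the 6 libraries. The libraries came from bone marrow-derived macrophages of wild-type (WT) C57BL/6 mice aged 8 weeks. By the labels, osteoclast precursors (OCP) had been in culture for 3 days and osteoclasts (OC) for 6 days, with 3 libraries each. In both groups the medium held M-CSF, the growth factor of macrophages, at 20 ng/ml, and the osteoclast-inducing cytokine RANKL at 10 ng/ml. Stage and time in culture therefore cannot be told apart. No label ties the replicates to separate mice or cultures, so errors and p-values reflect only how far these libraries varied among themselves, and that variation may be technical.

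The libraries held 33219178 to 42121216 reads assigned to genes. Each of 10 osteoclast markers was detected in every library, but all 10 were lower in the libraries labelled OC, with a summed level of 5104 to 5261 RPKM in OCP and 2730 to 2815 RPKM in OC. Among them Acp5, which encodes the TRAP enzyme used to identify the cultures, was at 642 and 338 RPKM. The 8 macrophage markers summed to 5275 to 5726 RPKM in OCP and 8360 to 8864 RPKM in OC. Of them 6 were called higher and 2 lower, beside 23.5% higher and 32.1% lower over all tested genes. Among the 6, Cx3cr1 (0.833 and 4.19 RPKM) and Mrc1 (0.556 and 2.74 RPKM) passed the filter only through the OC libraries, so their calls are no test. The most abundant osteoclast and macrophage markers were the protease Ctsk, at 3249 ± 108 and 1711 ± 25.0 RPKM in OCP and OC, and the lysozyme Lyz2, at 4080 ± 270 and 7197 ± 263 RPKM (SD, n = 3 per group). The table held 7 neutrophil markers, and all 3 that were tested were higher, with S100a9 at 23.2 ± 1.37 and 31.9 ± 1.98 RPKM. The B cell, T and NK cell, and erythroid and megakaryocyte lists each summed to less than 1 RPKM in every library, led by Cd79b, Cd4 and Hbb-bs. The stromal list, led by Col1a1 at 0.851 and 1.01 RPKM, and the endothelial list, led by Kdr at 1.75 and 1.54 RPKM, each summed to 2.24 to 2.91 RPKM. The part of these shifts in the results below was not tested. In such bulk RNA, fewer cells of a type and less RNA per cell cannot be told apart. The osteoclast markers were thus higher in the group named for precursors, and the macrophage markers summed higher in the group named for osteoclasts. The names OCP and OC are kept here as given by the labels, and whether they fit their libraries was not tested.

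As background, PHGDH oxidises 3-phosphoglycerate, PSAT1 transfers an amino group to the product, and PSPH removes the phosphate to release serine. SHMT1 in the cytosol and SHMT2 in mitochondria split serine into glycine and a 1-carbon unit bound to tetrahydrofolate. In mitochondria MTHFD2 oxidises that unit and MTHFD1L releases it as formate, while ALDH1L2 burns it to carbon dioxide with a gain of NADPH; in the cytosol the trifunctional MTHFD1 takes formate up again for purines, thymidylate and methionine. The pathway is known for feeding growth and redox balance, and PHGDH, PSAT1, SHMT2, MTHFD2 and ALDH1L2 are known targets of the stress factor ATF4.

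The promoters of the members with the largest rise and the largest fall among those with an entry are shown, because ATF4 and MYC are known to act on genes of this pathway. RefSeq on GRCm38.p6 held a window from 250 bases before to 50 bases after the start for 8 of the 9 genes (9 windows, since Psat1 has a pair of starts), and Aldh1l2 had none. The search, on both strands, was for the C/EBP-ATF composite TGATGNAA and the E-box CACGTG, neither of which contains the other. Neither was found in any of the 9 windows. Of all 32851 windows of the same length, 3.97% held TGATGNAA and 7.15% held CACGTG. The absence says only that these letters are not in these windows. The 250 bases before the start of Phgdh (chr3:98339970-98340219, minus strand) and of Mthfd1 (chr12:76254982-76255231, plus strand) read 5′ to 3′ as follows, with CG dinucleotides in capitals, of which there are 7 and 15.
Phgdh: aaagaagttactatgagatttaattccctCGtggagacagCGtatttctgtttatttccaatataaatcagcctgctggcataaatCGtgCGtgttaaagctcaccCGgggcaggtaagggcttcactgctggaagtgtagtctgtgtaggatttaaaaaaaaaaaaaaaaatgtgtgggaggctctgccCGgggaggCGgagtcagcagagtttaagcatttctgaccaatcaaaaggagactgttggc
Mthfd1: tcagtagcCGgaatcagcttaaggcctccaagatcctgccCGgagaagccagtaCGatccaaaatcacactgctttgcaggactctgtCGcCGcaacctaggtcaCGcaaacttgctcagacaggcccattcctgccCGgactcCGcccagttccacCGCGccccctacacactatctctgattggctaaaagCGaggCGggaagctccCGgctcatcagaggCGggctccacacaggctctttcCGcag
In the full 300-base windows the members held 8 CG dinucleotides (Mthfd1l) to 30 (1 of the Psat1 windows), against a median of 7 over all windows.

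Serine synthesis was uneven between its 3 steps. Phgdh, the entry enzyme on chromosome 3 (98313170 to 98339990, minus strand), stood at 22.8, 27.1 and 25.7 RPKM in OCP replicates 1, 2 and 3 and at 74.1, 73.5 and 68.7 RPKM in the OC replicates. All OC libraries lay far above all OCP libraries. Its mean went from 25.2 ± 2.21 to 72.1 ± 2.95 RPKM (SD, n = 3 per group), a 2.86-fold ratio and a log2 fold change of 1.48 (SE 0.07) on the scale of log2(RPKM + 1). Psat1, the aminotransferase on chromosome 19 (15904678 to 15947337, minus strand), stood at 8.04, 7.89 and 7.47 RPKM in OCP and 11.9, 10.65 and 10.51 RPKM in OC. Here too the groups lay apart, with a 1.41-fold ratio of means and a log2 fold change of 0.45 (SE 0.06). Psph, the phosphatase on chromosome 5 (129765558 to 129787449, minus strand), went the other way, with 15.8, 15.3 and 16.2 RPKM in OCP and 14.1, 12.8 and 14.6 RPKM in OC. The highest OC library stayed below the lowest OCP library, at a ratio of means of 0.877 and a log2 fold change of -0.18 (SE 0.06). Psph shares 452 exon bases with Cct6a on the other strand, a chaperonin gene at 76.8 ± 4.11 and 74.2 ± 1.92 RPKM, and the sources used here do not say whether reads were counted by strand. The ratio of Phgdh to Psat1, chosen after the values were seen, was 3.24 ± 0.348 in OCP and 6.55 ± 0.335 in OC.

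**Figure D1:**
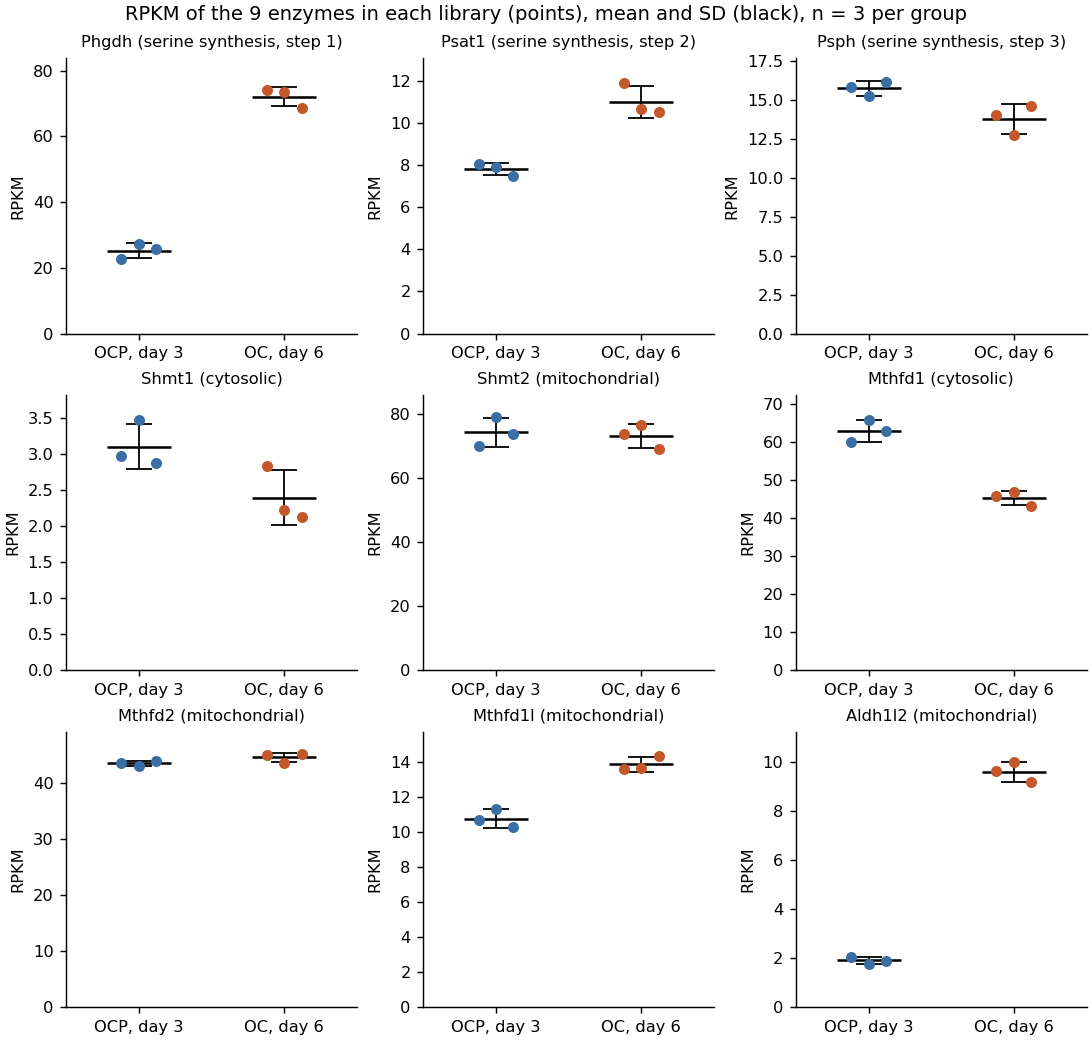
RPKM (vertical axes, each from 0) of the 9 enzymes in the 3 OCP and 3 OC libraries; points are libraries, black bars the mean and SD. Phgdh rises from about 25.2 to 72.1 RPKM and Aldh1l2 from 1.9 to 9.59 RPKM, while the points of Shmt2 and Mthfd2 overlap between the groups.

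Reads that fall on near-identical copies bear on the value of Phgdh. By blastn, 20 processed pseudogenes in GENCODE M21 matched its transcripts at 85% identity or more over at least 50% of their length, and 12 of them were in the table, at 89.5% to 98.7% identity. Together they held 106, 94 and 112 reads in OCP replicates 1, 2 and 3, equal to 4.44%, 3.51% and 4.77% of the reads of Phgdh itself. In OC replicates 1, 2 and 3 they held 1340, 1291 and 1321 reads, or 20.8%, 21.3% and 20.3% of those of Phgdh. The copies therefore went up by more than Phgdh did, and their summed level per assigned read was 14.1 times higher in OC.

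The 3 copies that passed the filter differed from each other as well. Gm7901 (98.7% identical, chromosome 8, 75711600 to 75713196) went from 1.26 ± 0.168 to 11.4 ± 1.29 RPKM (log2 fold change 2.46, SE 0.09, limma adjusted p = 4.8e-07). Gm9347 (97.4% identical, chromosome 7, 136810909 to 136812515) had 4, 0 and 2 reads in OCP and 286, 260 and 286 reads in OC. Gm6756 (94.8% identical) had 4, 6 and 2 reads in OCP and 222, 232 and 220 reads in OC. Gm9347 and Gm6756 passed the filter only through the OC libraries, where they were high, so no test of them is given. GENCODE places Gm9347 and Gm6756 in no other gene, and Gm7901 within the span of Iqcm on the other strand. The sources used here do not say how reads with several matches were counted. The copies' reads were not a constant share of the Phgdh reads, and the part of read assignment in their rise was not tested. With the reads of all 12 copies added, an alternative chosen after seeing the data, the log2 fold change of Phgdh was 1.69. Among the other members only Psat1 and Shmt2 had such a copy in the table, with 3 to 6 reads summed over each group.

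**Figure D2:**
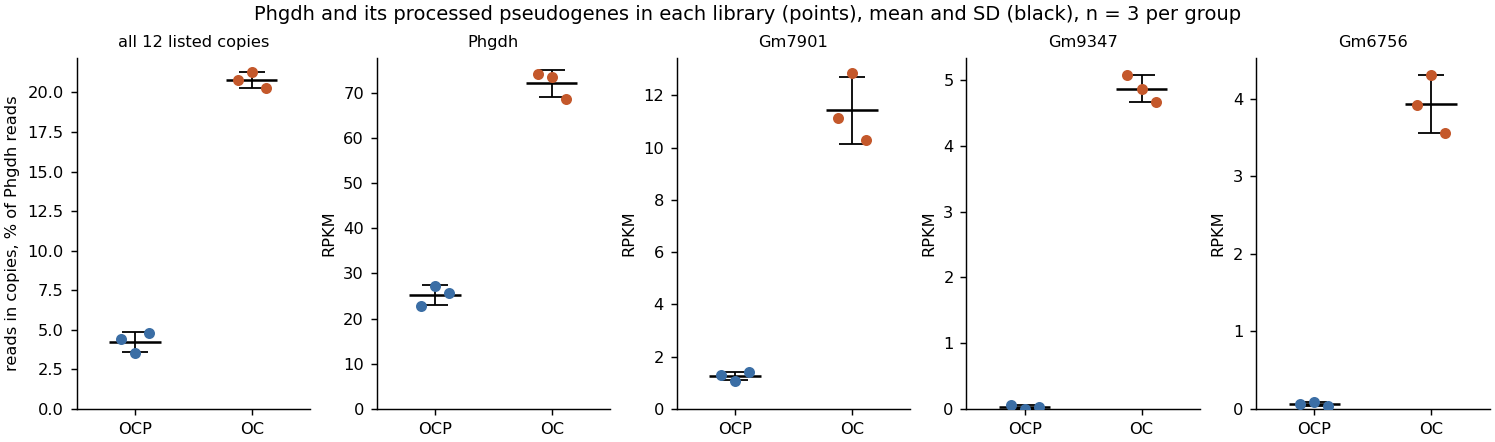
Reads in the 12 listed Phgdh copies as a percentage of Phgdh reads (left) and RPKM of Phgdh and of the 3 copies that passed the filter, with points for libraries and black bars for the mean and SD; all axes start at 0. The copies hold 3.51% to 4.77% of the Phgdh reads in OCP and 20.3% to 21.3% in OC.

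The serine hydroxymethyltransferases differed widely in level. Shmt2, the mitochondrial enzyme on chromosome 10 (127517123 to 127522444, minus strand), had 70.0, 79.0 and 73.7 RPKM in OCP and 73.5, 76.4 and 68.9 RPKM in OC. The groups overlapped, and the 95% confidence interval of the log2 fold change ran from -0.16 to 0.11. Its cytosolic counterpart Shmt1, on chromosome 11 (60788104 to 60811718, minus strand), had 2.98, 3.47 and 2.87 RPKM in OCP and 2.83, 2.23 and 2.13 RPKM in OC. OC replicate 1 came close to OCP replicate 3, although the groups did not overlap, and the log2 fold change was -0.28 (SE 0.10). Shmt1 had few reads, 288 to 535 per library, and shares 184 exon bases with Smcr8 on the other strand.

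Of the 4 folate cycle enzymes 1 was lower, 1 overlapped between the groups and 2 were higher. Mthfd1, the cytosolic trifunctional enzyme on chromosome 12 (76255232 to 76319820, plus strand), had 60.1, 66.0 and 62.9 RPKM in OCP and 45.9, 46.8 and 43.3 RPKM in OC. Its means were 63.0 ± 2.93 and 45.3 ± 1.84 RPKM, at a log2 fold change of -0.47 (SE 0.05) the largest fall of the 9, and 9.9% of tested genes had a lower fold change. Mthfd2, the mitochondrial dehydrogenase and cyclohydrolase on chromosome 6 (83305691 to 83325908, minus strand), had 43.6, 43.1 and 44.0 RPKM in OCP and 45.0, 43.7 and 45.3 RPKM in OC. Its groups overlapped, and the 95% confidence interval of its log2 fold change was -0.06 to 0.13. Mthfd1l, the mitochondrial formate-releasing synthetase on chromosome 10 (3973118 to 4167081, plus strand), went from 10.7, 11.3 and 10.2 RPKM to 13.6, 13.6 and 14.3 RPKM. All OC libraries were above all OCP libraries, at a ratio of means of 1.29 and a log2 fold change of 0.34 (SE 0.05).

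Aldh1l2, the mitochondrial 10-formyltetrahydrofolate dehydrogenase on chromosome 10 (83487450 to 83534140, minus strand), had the largest change of the 9. It stood at 2.04, 1.76 and 1.89 RPKM in OCP and at 9.63, 9.98 and 9.18 RPKM in OC. From the lowest member in OCP it went to above Shmt1, with a 5.05-fold ratio of means (1.9 ± 0.143 to 9.59 ± 0.402 RPKM) and a log2 fold change of 1.87 (SE 0.06). At so low a level the pseudocount of 1 shrinks the difference, which came to 2.38 (log2) by voom on recovered reads. Of its 7503 exon bases 1056 are shared with D10Wsu102e on the other strand. That gene held 702, 672 and 602 reads in OCP and 1015, 833 and 1124 reads in OC, against 646, 524 and 522 and then 2529, 2487 and 2624 reads for Aldh1l2. In the tested genes 1.87 was a larger log2 fold change than that of 98.8%, and the 1.48 of Phgdh larger than that of 98.2%.

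By the threshold used for all genes (limma, adjusted p under 0.05), 7 of the 9 members were called: Phgdh, Psat1, Mthfd1l and Aldh1l2 higher, and Psph, Shmt1 and Mthfd1 lower. Over all tested genes 55.6% were called, 23.5% higher and 32.1% lower, and since the members were chosen with this contrast known nothing is read from the share. The groups did not overlap for 7 members, against 62.7% of tested genes. Phgdh and Aldh1l2 were at least 2-fold higher, as were 3.68% of tested genes. The median log2 fold change of the members was 0.03 and that of all tested genes -0.05. The calls of Psph and Shmt1 were lost with TMM factors and with no filter, and also when OCP replicate 1 or OC replicate 2 was left out, so that 1 member (Mthfd1) remained called lower. The Psph call was further lost by voom and without OCP replicate 3 or OC replicate 1, and that of Shmt1 without OCP replicate 2 or OC replicate 3.

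RPKM is scaled by the listed exon length of each gene, and whether all of those exons are used in these cells was not tested. The order of the genes below is therefore one of RPKM and need not be that of transcript numbers. In OCP the order of RPKM was Shmt2, Mthfd1, Mthfd2, Phgdh, Psph, Mthfd1l, Psat1, Shmt1 and Aldh1l2, and no neighbours had overlapping ranges. In OC it was Shmt2, Phgdh, Mthfd1, Mthfd2, Mthfd1l, Psph, Psat1, Aldh1l2 and Shmt1. There Phgdh (68.7 to 74.1 RPKM) overlapped Shmt2 (68.9 to 76.4 RPKM), Mthfd1 overlapped Mthfd2, and Mthfd1l overlapped Psph. Without the reads of its copies, Phgdh thus stood well under the members with the highest RPKM in OCP and level with the highest in OC. The copies held 3.51% to 4.77% of the Phgdh reads in OCP and 20.3% to 21.3% in OC. Whether counting them would change its place was not tested.

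Mitochondrial over cytosolic ratios were higher in OC for each pair set side by side, and Mthfd1 is the cytosolic enzyme of both Mthfd pairs. Shmt2 over Shmt1 was 23.5, 22.8 and 25.7 in OCP and 25.96, 34.2 and 32.4 in OC, groups that lay apart by little. Shmt2 overlapped between the groups, so this ratio moved with Shmt1, whose call was lost in 6 of 14 alternatives. Mthfd2 over Mthfd1 went from 0.693 ± 0.0365 to 0.986 ± 0.0567, and since Mthfd2 overlapped between the groups, this ratio moved with the fall of Mthfd1. Mthfd1l over Mthfd1 went from 0.171 ± 0.00731 to 0.306 ± 0.022. Aldh1l2 over its cytosolic counterpart Aldh1l1, a pair chosen after the values were seen, went from 0.255 ± 0.028 to 2.01 ± 0.0861. In OCP the cytosolic enzyme of that pair had the higher RPKM, and in OC the mitochondrial one, each scaled by its own listed exon length. Values of all 4 ratios lay apart between the groups, and the ratios are descriptions with no test.

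**Figure D3:**
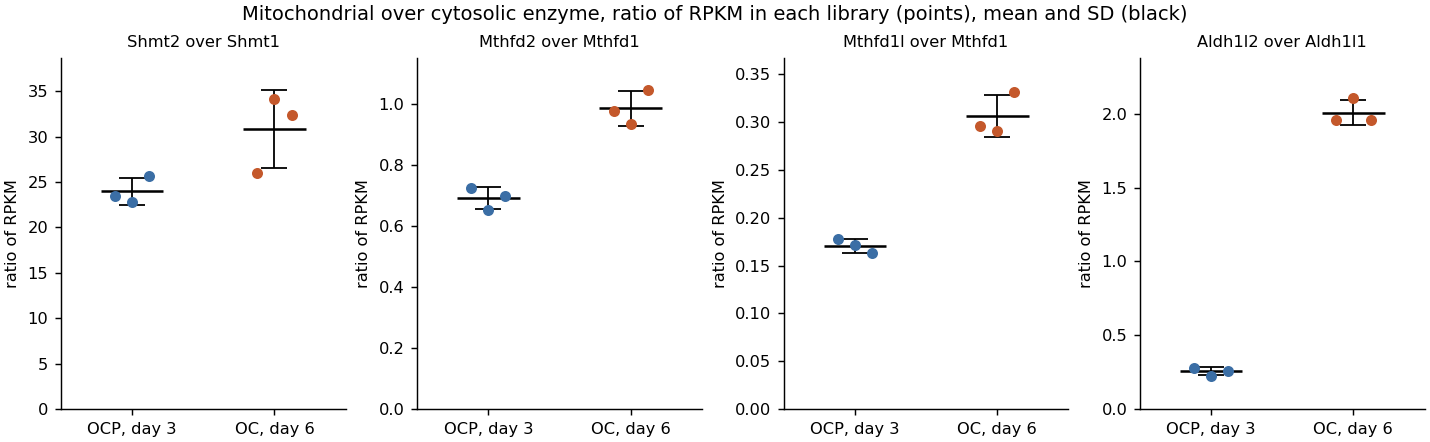
Ratio of RPKM, mitochondrial over cytosolic enzyme (vertical axes, from 0), in each OCP and OC library; points are libraries, black bars the mean and SD. Aldh1l2 over Aldh1l1 moves from below 1 in every OCP library to between 1.96 and 2.11 in OC.

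The rest of the pathway was followed in 8 lists of 63 genes, of which 58 were in the table and 46 were tested. Of these 14 were called higher, 15 lower and 17 did not pass, beside 23.5% higher and 32.1% lower over all tested genes. The median log2 fold change was -0.05, equal to that of all tested genes. Eno2 and Ahcyl2, counted as higher, and Slc46a1, counted as lower, passed the filter only through the group where they were high, so their calls are no test. Among the other enzymes of folate interconversion and those that spend folate units on nucleotides, no tested gene was called higher. With only 4 tested genes in each list, and 23.5% of all tested genes called higher, nothing is read from this. Mthfd2l, a relative of Mthfd2 on the interconversion list, was under the filter. Its OCP and OC means were 0.364 and 0.690 RPKM, the OC libraries all lay above the OCP ones, and with no filter it was called higher. Aldh1l1 fell from 7.46 ± 0.299 to 4.78 ± 0.128 RPKM (limma adjusted p = 9.0e-05), and Mthfs, which returns 5-formyltetrahydrofolate to the cycle, from 2.34 ± 0.055 to 1.46 ± 0.154 RPKM (adjusted p = 0.0010). These were 2 of 4 tested genes of the interconversion list, and Mtfmt, at 2.96 and 2.62 RPKM, did not pass. Gart and Atic, the purine enzymes that use formyl groups, fell from 20.1 ± 0.559 to 15.9 ± 0.772 RPKM and from 10.2 ± 0.63 to 7.7 ± 0.235 RPKM. They were 2 of 4 tested genes of the nucleotide list, and Tyms, the thymidylate synthase, at 1.97 and 1.76 RPKM, did not pass.

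Folate uptake and retention split 2 and 2 by the calls among 6 tested genes, with Slc46a1, whose call is no test, as 1 of the lower ones. Beside this, 23.5% of all tested genes were called higher and 32.1% lower. Ggh, which trims the polyglutamate tail that holds folate in the cell, rose from 18.5 ± 1.9 to 28.7 ± 1.34 RPKM (limma adjusted p = 0.00028). Fpgs, which adds that tail, fell from 5.0 ± 0.286 to 3.49 ± 0.313 RPKM (adjusted p = 0.0016). The folate receptor Folr2 went from 2.48 ± 0.479 to 3.43 ± 0.554 RPKM (adjusted p = 0.044) and the proton-coupled carrier Slc46a1 from 1.21 ± 0.0685 to 0.897 ± 0.0531 RPKM. Both of these calls were lost without OC replicate 3, that of Folr2 also without OCP replicate 2 or 3 or OC replicate 1 and with no filter or quantile normalization, and that of Slc46a1 without OC replicate 2. Slc46a1 passed the filter only through the OCP libraries, where it was high, so no test of it is given. It dropped out of the fit when any OCP replicate was left out. In the glycine list 2 of 6 genes were tested and Gcsh, the carrier protein of the glycine cleavage system, fell from 41.7 ± 2.91 to 32.8 ± 1.32 RPKM. Gldc, the decarboxylase of that system, at 0.178 and 0.136 RPKM, was under the filter.

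The methionine cycle and transsulfuration had 3 risen and 3 fallen of 8 tested, beside 23.5% higher and 32.1% lower over all tested genes. Cth, which makes cysteine from cystathionine, rose from 2.28 ± 0.0676 to 6.56 ± 0.467 RPKM (limma log2 fold change 1.20, SE 0.07, adjusted p = 3.7e-06). Cbs, which joins serine to homocysteine in the step before it, was at 0 in all 3 OC libraries and at 0.0105 RPKM on average in OCP. Ahcyl1 and Ahcyl2, relatives of the homocysteine-releasing hydrolase, rose from 14.1 to 22.4 RPKM and from 0.644 to 1.17 RPKM, while the hydrolase Ahcy itself fell from 22.8 ± 0.579 to 15.7 ± 1.1 RPKM. Ahcyl2 passed the filter only through the OC libraries, so its call, 1 of the 3 counted as risen, is no test. The folate-dependent methionine synthase Mtr fell from 19.6 ± 0.341 to 16.9 ± 0.409 RPKM. Its reductase Mtrr was at 6.14 and 5.32 RPKM (adjusted p = 0.036), a call lost in 8 of 15 alternatives.

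Genes that use or carry serine also went both ways, beside 23.5% called higher and 32.1% lower over all tested genes. Of 7 tested serine users 2 rose and 2 fell: the cytosolic seryl-tRNA synthetase Sars rose from 240 ± 4.91 to 299 ± 13.6 RPKM, and its mitochondrial counterpart Sars2 fell from 5.19 ± 0.659 to 3.14 ± 0.111 RPKM. Sptlc1, a subunit of the enzyme that starts sphingolipid synthesis, fell from 22.1 to 18.5 RPKM, and the racemase Srr, at 2.66 and 3.14 RPKM, passed at adjusted p = 0.043 in limma and lost the call in 9 of 14 alternatives. Of 8 tested transporters 2 rose and 3 fell. Slc1a5 and Slc1a4, which exchange neutral amino acids including serine, fell, Slc1a5 from a range of 14.7 to 15.1 RPKM to a mean of 10.1 ± 0.278 RPKM and Slc1a4 from 1.63 ± 0.13 to 0.942 ± 0.0951 RPKM, and Slc38a2 from 17.2 ± 0.905 to 13.7 ± 0.512 RPKM. Slc38a1 rose from 7.88 ± 0.136 to 12.1 ± 0.338 RPKM and the lysosomal Slc36a1 from 1.59 ± 0.153 to 2.92 ± 0.173 RPKM. The mitochondrial serine carrier Sfxn1 did not pass, at 18.5 and 17.6 RPKM.

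Around 3-phosphoglycerate, the point where serine synthesis leaves glycolysis, 5 of 7 tested genes were called higher and none lower. Over all tested genes 23.5% were called higher, and the call of Eno2, 1 of the 5, is no test. Pgk1, which makes 3-phosphoglycerate, rose from 200.3 ± 10.6 to 290.0 ± 7.94 RPKM (limma adjusted p = 6.9e-05), and Pkm, the pyruvate kinase, from 691 ± 26.7 to 994 ± 47.1 RPKM. Eno1 rose from 279 to 342 RPKM, and Eno2, the neuronal enolase, from 0.173 ± 0.0477 to 14.9 ± 0.573 RPKM, having passed the filter only through the OC libraries. Gapdh was at 172 RPKM in both groups. Copies of these genes were not searched for here.

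**Figure D4:**
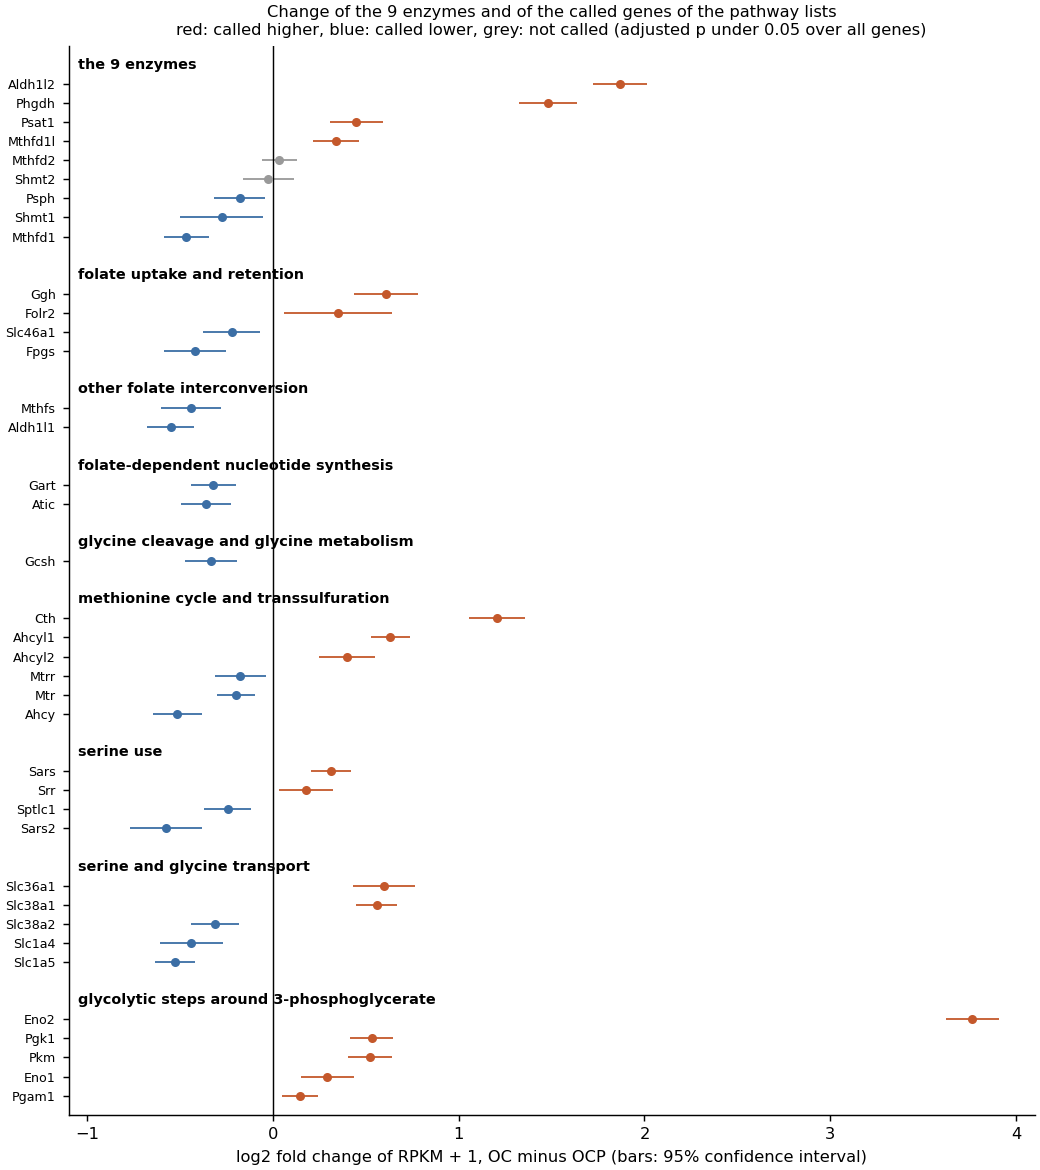
Log2 fold change of RPKM + 1, OC minus OCP (horizontal axis), with 95% confidence intervals for the 9 enzymes and the 29 called genes of the 8 pathway lists; red genes were called higher, blue lower and grey (Shmt2 and Mthfd2) not called. Aldh1l2 and Phgdh stand at 1.87 and 1.48, Cth at 1.20 and Eno2 at 3.76, and most other genes lie between -0.6 and 0.65. Eno2, Ahcyl2 and Slc46a1 passed the filter only through the group where they were high, so their intervals are no test.

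Of 6 known regulators of these enzymes Cebpg was called higher, Myc lower, and Atf4, Atf5 and Nfe2l2 did not pass. The call of Mycn is not counted, for the reason given below. Atf4, the stress-response factor, had 216, 209 and 212 RPKM in OCP and 228, 222 and 223 RPKM in OC (limma log2 fold change 0.08, SE 0.04, adjusted p = 0.11). It passed with TMM factors (log2 fold change 0.12, adjusted p = 0.029) and by voom (adjusted p = 0.035). Atf5 and Nfe2l2 did not pass, and Cebpg, a partner of ATF4, at 4.23 and 5.0 RPKM, passed at adjusted p = 0.034 and lost the call in 7 of 14 alternatives. Myc fell from 7.72 ± 0.438 to 5.6 ± 0.668 RPKM (adjusted p = 0.0036), whereas its paralog Mycn went from 0.00551 ± 0.00955 to 16.2 ± 0.313 RPKM, with 0, 0 and 2 reads in OCP and 1898, 1733 and 2033 reads in OC. Mycn passed the filter only through the OC libraries, so no test of it is given.

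Other ATF4 targets split 5 and 5 among 12 tested, beside 23.5% called higher and 32.1% lower over all tested genes. Ddit3, the stress factor CHOP, rose from 45.8 ± 2.3 to 119.7 ± 6.82 RPKM (limma log2 fold change 1.37, SE 0.06), Ddit4, an inhibitor of mTORC1, from 1.62 ± 0.436 to 4.22 ± 0.135 RPKM, Nupr1 from 23.5 to 35.1 RPKM and the cystine carrier Slc7a11 from 2.01 to 2.79 RPKM (adjusted p = 0.017), a call lost without OCP replicate 2 or OC replicate 3. Asns, the asparagine synthetase, named after its values were seen, rose from 31.5 to 38.6 RPKM. Chac1, a glutathione-degrading enzyme, was lower by the widest margin, at 16.7 ± 0.973 and 4.26 ± 0.175 RPKM (log2 fold change -1.75, SE 0.06). Also lower were Sesn2 (13.1 and 7.66 RPKM), the pseudokinase Trib3 (5.9 and 3.56 RPKM) and the amino acid carrier chain Slc3a2 (234 and 182 RPKM). Of 12 tested genes of handling and immediate early response, 9 were higher in OC and 1 was lower, against the same shares. They included Ier3 (5.53 and 51.4 RPKM), Atf3 (19.8 and 123 RPKM), Egr1 (1.88 and 5.22 RPKM) and Hspa1b (7.74 and 15.4 RPKM), with Dnajb1 lower at 30.5 and 25.96 RPKM. The list summed to 214 to 231 RPKM in OCP and 421 to 439 RPKM in OC. Their part in the values of the members was not tested.

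**Figure D5:**
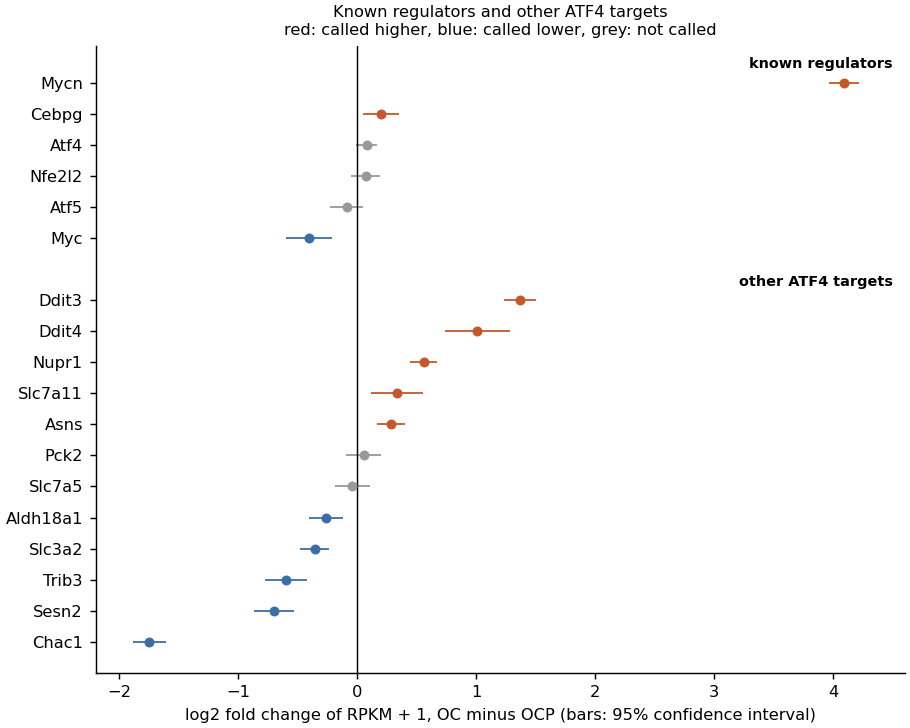
Log2 fold change of RPKM + 1, OC minus OCP (horizontal axis), with 95% confidence intervals for 6 known regulators and 12 other ATF4 targets; red genes were called higher, blue lower and grey not called. Mycn lies farthest to the right, but it passed the filter only through the OC libraries, so its interval is no test. Ddit3 stands at 1.37 and Chac1 at -1.75, and the interval of Atf4 reaches 0.

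Of 18 tested proliferation genes 9 fell, 1 rose and 8 did not pass, beside 32.1% of all tested genes that were lower. The list summed to 259.6 to 267 RPKM in OCP and 219.6 to 223 RPKM in OC. Plk1, the mitotic kinase, fell from 10.8 ± 0.527 to 5.51 ± 0.469 RPKM, and Cdc20, Cdk1 and Ccnb2 were at 10.2, 12.2 and 6.21 RPKM in OCP and at 5.63, 6.98 and 3.46 RPKM in OC. The replication clamp Pcna was the gene that rose, with 25.2 ± 2.62 and 29.7 ± 1.39 RPKM (limma adjusted p = 0.03), a call lost in 6 of 15 alternatives. The part of proliferation in the values of the members and of the other folate genes, which went both ways, was not tested.

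The genes with the pattern most like that of Aldh1l2, the member with the largest change, were Odc1, Akap13, Phf11d, Appl2 and Lcn2, with a Pearson correlation of log2(RPKM + 1) of 0.999 over the 6 libraries, out of 6084 protein-coding genes compared. The 6 points form a cluster for each group and share their libraries, so the likeness describes a clean difference between the groups. Odc1, which starts polyamine synthesis, went from 82.5 ± 2.82 to 1583 ± 75.3 RPKM, Lcn2 from 31.7 ± 1.48 to 95.7 ± 2.04 RPKM and Akap13 from 7.92 ± 0.142 to 12.4 ± 0.0939 RPKM.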

How the data were processed

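The authors deposited 1 table of RPKM for 26529 genes in 6 RNA-seq libraries, with gene length and coordinates per the file headers. Per the labels' protocols, a stranded mRNA kit was used on total RNA. Per the submitters' processing notes, the tools were Trimmomatic 0.36, STAR 2.5.3a and featureCounts, and the build named is GRCh38, although the coordinates are of mouse genes; 95.8% of symbols matched GENCODE M21 (GRCm38). How strand, multiply mapped reads and duplicates were treated is not given in the sources used here. RPKM times length gave whole reads for 100% of values within 0.01 reads; 63.7% to 68.3% of detected genes had an even number, so 2 reads can be 1 fragment.

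The 12301 genes at 1 RPKM or more in 3 or more libraries were tested in limma 3.58.1 (R 4.3.3, statmod 1.5.0, trend and robust options) on log2(RPKM + 1), OC minus OCP, with Benjamini-Hochberg adjustment over them, two-sided, threshold 0.05. The steps were also run on simulated reads in which a small share of genes changed. Those changes were larger than those of Psph and Shmt1, so that run does not bear on such calls. Each of these was changed in turn: the pseudocount (0.1 or 0.01), the filter (none, or an average of 5 RPKM), the scaling (quantile normalization, or TMM factors from recovered reads), the trend and robust options (off), a block for the replicate number, the tool (voom on recovered reads) and each library (left out). The members, the lists and the alternatives were chosen with earlier results of these data known. Named were all members; of each list, up to 4 called genes in each direction with the largest change, and every regulator; of each marker list the most abundant gene; and the 5 protein-coding genes with a mean of at least 5 RPKM most correlated with the member of largest change. Some genes of the lists are not reported here by name. Copies were found with blastn 2.17.0. Tables and plots used pandas 2.3.3, numpy 2.4.6 and matplotlib 3.10.9 under Python 3.11.15.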

Additional observations from a re-analysis of the deposited data

How the results depend on the processing

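Over 15 other ways of processing Phgdh, Psat1, Mthfd1l, Aldh1l2 and Mthfd1 kept their call and direction, and no member was called in the opposite direction; the log2 fold change of Phgdh ranged from 1.41 to 1.56, that of Aldh1l2 from 1.84 to 2.38 and that of Mthfd1 from -0.50 to -0.39. Called members with a lower value numbered 1 with no filter and 1 with TMM factors, against 3, and 1 to 2 without any one replicate. Mthfd2 passed with a higher value after quantile normalization (log2 fold change 0.12). The value of Shmt2, which never passed, turned positive after quantile normalization (0.039), with TMM factors (0.019) and by voom (0.019), and ranged from -0.066 to 0.020 without any one replicate. Restricted to genes that averaged 5 RPKM or more, 1645 were called higher against 2889, and the called genes numbered 1 for folate uptake, 1 for other folate interconversion, 2 for serine use and 3 for transport, since fewer genes were tested. The glycine list had 2 called with no filter. Leaving out each replicate in turn gave 2 to 3 called genes of folate uptake, 1 to 2 of the glycine list, 3 to 5 around 3-phosphoglycerate and 1 to 3 regulators. The cause of these other changes was not tested.

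The replicate numbers share only a number: the correlations of deviations between same-numbered libraries were -0.115, 0.143 and 0.0142, and not every library correlated best with its own number. With the replicate number as a block 2827 genes were higher and 3851 lower, and 4 members were higher and 3 lower, as without it. Under the block Slc46a1, Srr (adjusted p = 0.073) and Cebpg (adjusted p = 0.051) did not pass. The median log2 fold change of all tested genes was -0.05, and -0.01 with TMM factors.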

Other observations

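Appl2, an endosomal adaptor and among the 5 genes most like Aldh1l2 over the 6 libraries, is also its neighbour. It lies on the same strand of chromosome 10 (83600033 to 83648738 in GENCODE M21), 65893 bases from Aldh1l2. Its level went from 6.34 ± 0.327 to 17.3 ± 0.391 RPKM (limma log2 fold change 1.32, SE 0.05). Appl2 was picked for its likeness to Aldh1l2 in these same libraries, so its call is no test. Slc41a2, a magnesium transporter 149568 bases from Aldh1l2 on the other side, did not pass, at 4.16 ± 0.203 and 3.82 ± 0.266 RPKM (limma adjusted p = 0.24). D10Wsu102e, which overlaps Aldh1l2 on the other strand, was under the filter at 0.135 ± 0.00219 and 0.226 ± 0.0196 RPKM. The neighbours were looked at after the list of most similar genes had been seen.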
